A study of Mus musculus with 2 samples.

Results

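The 10 genes described here make up the oxygen-sensing system of the cell together with a pair of its transcriptional targets. They were picked by symbol, and all 10 were found among the 23628 genes listed. The rule itself uses no measured value, but the members were chosen with earlier results of these data known. They are the hypoxia-inducible factor (HIF) genes *Hif1a*, *Epas1* and *Arnt*, the oxygen sensors *Egln1*, *Egln2*, *Egln3* and *Hif1an*, the ubiquitin ligase gene *Vhl*, and the target genes *Bnip3* and *Adm*. The measurements are RNA-sequencing of 2 libraries (replicates 1 and 2) of 1 condition, *Sox9* GFPHi chondrospheres, which the labels call MC-SOX9-GFPhi. Chondrospheres are colonies grown from single cells. The cells came from femoral heads of homozygous *Sox9* IRES-EGFP reporter pups at postnatal day 7, and were sorted for high GFP and for lack of CD31, Ter119 and CD45. They were cultured at 5% oxygen in 1% methylcellulose with serum, FGF2, BMP4, IGF1, LIF and TGF-β1, and both libraries share all of this. Whether colonies were moved to liquid medium before RNA was taken is not given for these libraries. The labels do not tie the libraries to pups, and no library grown at another oxygen level was analysed here, so the values describe levels at 5% oxygen and not a response to oxygen.

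HIF is a pair of proteins, an oxygen-regulated alpha subunit (HIF1 alpha from *Hif1a*, or HIF2 alpha from *Epas1*) and the constant partner that *Arnt* encodes. When oxygen is present, the prolyl hydroxylases encoded by *Egln1*, *Egln2* and *Egln3* mark the alpha subunit, the VHL protein binds the mark, and the subunit is degraded, while the asparaginyl hydroxylase encoded by *Hif1an* blocks its activity. Because this control acts on protein, mRNA levels of the subunits do not measure HIF activity. Cartilage has no blood vessels, and HIF1 alpha is known to be needed for the survival of growth plate chondrocytes, whereas HIF2 alpha is known for driving matrix-degrading genes in cartilage disease.

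Levels are given in CPM, the counts of a gene relative to all counts of the library, and where values are paired the order is replicate 1, then replicate 2. The step between low values implied depths of 43300000 and 42200000 reads over the listed genes, and 3 reads, taken as the lowest level that could be shown, correspond to 0.0693 and 0.0712 CPM. The 95% intervals given for single libraries are exact Poisson intervals from that depth and cover counting error only. The 10 highest genes took 43.4% and 34.7% of all counts, which moves the CPM of every other gene. The chondrocyte markers *Col2a1*, *Acan*, *Sox9*, *Col9a1*, *Col11a2* and *Hapln1* had summed levels of 172045 and 120388 CPM. Of the 6 endothelial markers, 5 (*Cdh5*, *Kdr*, *Tek*, *Emcn* and *Tie1*) were listed at 0 in both libraries, and the list summed to 0.231 and 0.166 CPM. The leukocyte list summed to 3.26 and 3.50 CPM, the erythroid list to 0.0930 and 0.120 CPM and the fibroblast surface list to 2.40 and 3.69 CPM. The list for pericytes and smooth muscle summed to 591 and 713 CPM, nearly all of it *Cspg4*, which chondrocytes also express, and *Acta2*. Osteoblast and osteocyte markers stood at 4.86 against 52.7 CPM in sum, of which the osteocyte gene *Dmp1* had 0.116 and 40.4 CPM. In bulk libraries, fewer cells of a type and less RNA per cell cannot be told apart.

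Among the HIF subunits, *Hif1a* was far above *Epas1*. *Hif1a* lies on chromosome 12 of GRCm38 from 73901375 to 73947530 and had 325 and 283 CPM, and the mean, 304 ± 29.4 CPM (SD, n = 2), ranked 275 among all genes. *Epas1* lies on chromosome 17 from 86753700 to 86833410 and had 6.70 CPM (95% interval 5.95 to 7.52) in replicate 1 and 3.77 CPM (3.21 to 4.41) in replicate 2, rank 9650 by mean. The annotated exons of these genes cover nearly the same length, 5896 bases for *Hif1a* and 5590 for *Epas1*. Per kilobase of exon, *Hif1a* exceeded *Epas1* 46.0-fold and 71.2-fold. The log2 ratio was 5.84 ± 0.45 (SD, n = 2), so the difference was many times the spread between the libraries.

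*Arnt* (chromosome 3, 95434388 to 95497240), which encodes the shared partner, was the second highest of the 10 genes in CPM, at 57.2 and 53.9 CPM. Its mean was 55.5 ± 2.34 CPM (SD, n = 2). Per kilobase of exon, *Hif1a* exceeded *Arnt* 7.72-fold and 7.14-fold, a log2 ratio of 2.89 ± 0.08 (SD, n = 2). The ratio depended on the length used and was 2.32 on the log2 scale with the longest coding transcript in place of all exons. The other subunit genes were low. *Arnt2*, a relative of *Arnt* best known in neurons, had 2.29 and 8.34 CPM, and *Hif3a*, which encodes another alpha subunit, was listed at 0 in both libraries.

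**Figure D1:**
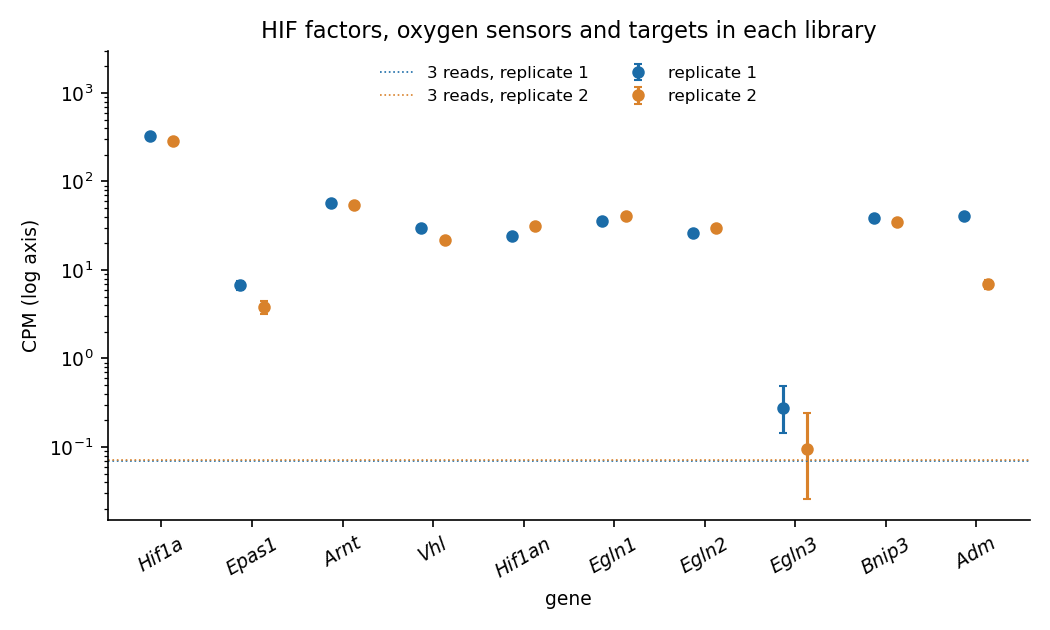
CPM (log axis) of the 10 genes in replicate 1 (blue) and replicate 2 (orange), with bars for the 95% Poisson interval of each library and dotted lines at 3 reads. *Hif1a* sits at 325 and 283 CPM above all others, *Egln3* near the dotted lines, and *Adm* is the gene whose points lie farthest apart, 40.5 and 6.86 CPM.

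The 3 prolyl hydroxylase genes split into a pair at similar levels and 1 gene close to the detection limit. *Egln1* (chromosome 8, 124908587 to 124949324), which encodes PHD2, the main HIF hydroxylase in most cells, had 36.2 and 41.3 CPM. *Egln2* (chromosome 7, 27158658 to 27166802), which encodes PHD1, had 26.3 and 29.9 CPM. Both were higher in replicate 2 in the deposited CPM. Under the other scalings tried, the log2 ratio of replicate 2 to replicate 1 was slightly negative. It ran from -0.11 to -0.006 for *Egln1* and from -0.12 to -0.009 for *Egln2*. The values nearest zero are smaller than the counting errors, 0.05 and 0.06, and carry no direction. *Egln3* (chromosome 12, 54178981 to 54203860), which encodes PHD3 and is itself a HIF target in many cell types, had 0.277 CPM (95% interval 0.143 to 0.484) in replicate 1 and 0.0949 CPM (0.0259 to 0.243) in replicate 2, or about 12 and 4 reads.

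Per kilobase of exon, *Egln1* exceeded *Egln3* 96.6-fold and 322-fold, or by 7.46 ± 1.23 on the log2 scale (SD, n = 2), and *Egln2* exceeded it by 7.36 ± 1.23 (SD, n = 2). *Egln3* itself was 2.92 times higher in replicate 1, with a 95% exact counting interval from 0.886 to 12.4, so no difference between the libraries was detectable at this depth. *Egln1* and *Egln2* could not be ordered. *Egln1* was higher per kilobase of exon by a log2 ratio of 0.10 in each library, with counting errors of 0.06 and 0.05, but the mean ratio was -0.31 when the longest coding transcript replaced the exons.

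*Hif1an* (chromosome 19, 44562850 to 44576274), the gene of the asparaginyl hydroxylase FIH, had 24.2 and 31.5 CPM. Among the members above 1 CPM it was the one most above its replicate 1 level in replicate 2, by a factor of 1.30 as deposited. Its level per kilobase, 3.67 and 4.77 CPM, was lower than that of *Egln1* and *Egln2* in both libraries. *P4htm*, which encodes a hydroxylase of the endoplasmic reticulum membrane that can act on HIF, had 1.25 and 0.546 CPM. Outside the HIF hydroxylases, a list of 5 other oxygen-dependent enzymes was measured throughout. It holds the cysteamine dioxygenase gene *Ado* and the histone demethylase genes *Kdm5a*, *Kdm5c*, *Kdm6a* and *Kdm4b*, and its sum was 144 and 160 CPM.

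*Vhl* (chromosome 6, 113623959 to 113631633), the substrate-binding subunit of the ubiquitin ligase, had 29.5 and 21.6 CPM, less in replicate 2. The other subunits of the complex were all detected. *Elob*, an adaptor subunit, had 48.6 and 60.5 CPM, and *Eloc*, *Cul2* and *Rbx1* lay between 18.9 and 29.4 CPM. *Vhl* was lower in replicate 2 under each scaling tried. Of the 7 genes for HIF coactivators and regulators, *Rack1* had the highest level at 432 and 582 CPM, followed by the chaperone gene *Hsp90aa1* at 146 and 210 CPM. *Cited2*, which encodes a protein that competes with HIF for its coactivators, differed most of this list, with 17.4 against 51.2 CPM. The coactivator gene *Ep300* had 42.8 and 54.0 CPM, and *Crebbp* 48.2 and 57.2 CPM.

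**Figure D2:**
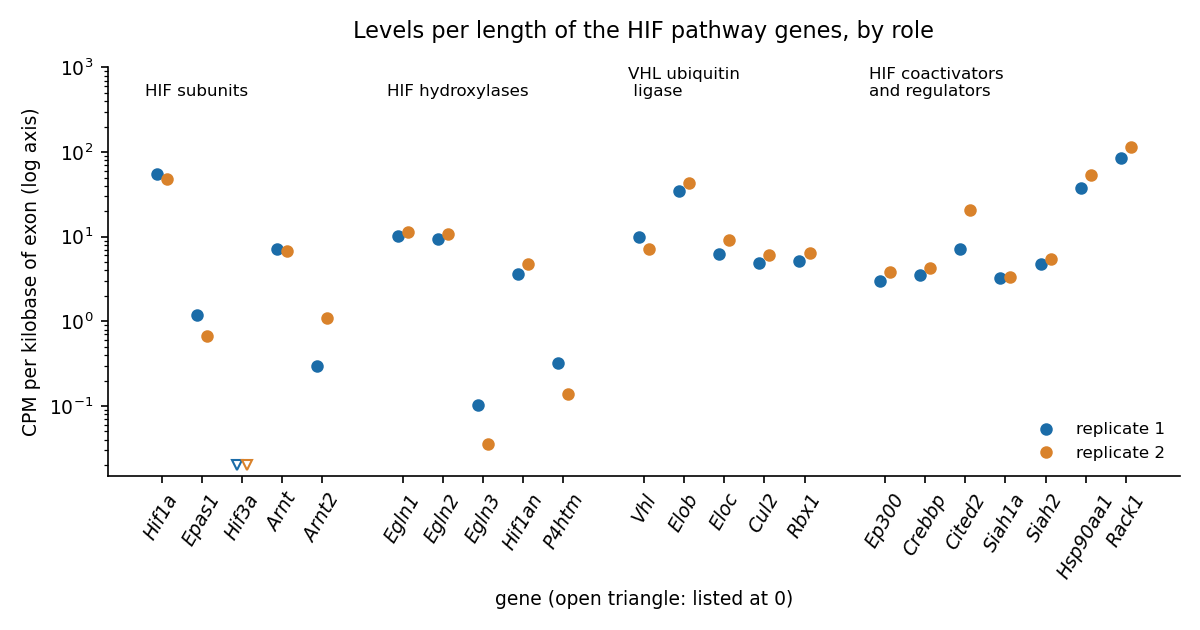
CPM per kilobase of exon (log axis) for the HIF subunits, HIF hydroxylases, VHL ligase subunits and HIF regulators, with replicate 1 in blue, replicate 2 in orange and open triangles for genes listed at 0. *Hif1a* stands apart from the other subunits at 55.1 and 48.0, and *Egln3* lies far below *Egln1* and *Egln2*.

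Ordered by mean CPM per kilobase of exon, the members ran from *Hif1a* (51.6) through *Bnip3* (16.3), *Adm* (14.6), *Egln1* (10.8), *Egln2* (9.38 and 10.7 in the libraries), *Vhl* (8.52), *Arnt* (6.93) and *Hif1an* (4.22) to *Epas1* (0.937) and *Egln3* (0.0699). A few places in this order did not hold against the spread between the libraries. *Bnip3* and *Adm*, *Adm* and *Egln1*, and *Egln2* and *Vhl* each changed places from one library to the other. *Adm* held its place only through replicate 1, and stood at place 8 of 10 in replicate 2, with 4.23 CPM per kilobase. Using the longest coding transcript instead, *Hif1a* and *Bnip3* kept the top places by mean, *Adm* again only through replicate 1, and *Hif1an*, *Epas1* and *Egln3* the last, while *Arnt* moved from place 7 to 5 and *Egln1* from 4 to 6. The lengths come from an annotation release earlier than the one used for the counts, and *Hif1a* is overlapped by an antisense gene, *Gm15283*, listed at 1.20 and 0.898 CPM, whose reads could be told apart only if the counting used strand.

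HIF binds a short DNA core, ACGTG or GCGTG, known as the hypoxia response element. The promoter windows of RefSeq (build GRCm38.p6), which run from 250 bases before to 50 bases after each annotated start, were available for 9 of the 10 members, all but *Epas1*, and *Egln2* has 2 starts. Either core was present on at least 1 strand in 8 of these 10 windows, against 43.8% of all 32851 windows. The windows of *Vhl* and *Hif1an* held neither. Both windows of *Egln2* are counted among those with a core. The members' windows ranged from 49.3% to 86.0% G and C, and the background was not matched for this, so no excess of cores is read from these shares. The windows of 4 members known as HIF targets are shown, because their levels spanned the order, with *Bnip3* high in both libraries, *Adm* high in replicate 1 alone and *Egln3* last. They are written 5′ to 3′ on the gene's own strand with the cores in capitals, where CACGC is GCGTG read on the opposite strand. Negative positions lie before the start. *Bnip3* (chr7:138909457-138909756, minus strand), whose window was 71.7% G and C, held 5 matches at 4 separate sites. That number of sites was reached by 2.44% of all windows, which were not matched for G and C, so no excess is read from it. One of the *Bnip3* sites, CACGTG, reads ACGTG on both strands, so its overlapping matches, which begin at -108 and -107, count as 1 site. *Adm* (chr7:110627407-110627706, plus strand) held 2 matches of GCGTG, both on the opposite strand, beginning at -90 and -54. *Egln1* (chr8:124949205-124949504, minus strand) held 1 match of each core, and *Egln3* (chr12:54203825-54204124, minus strand) held 1 ACGTG, which begins at -229.
Bnip3: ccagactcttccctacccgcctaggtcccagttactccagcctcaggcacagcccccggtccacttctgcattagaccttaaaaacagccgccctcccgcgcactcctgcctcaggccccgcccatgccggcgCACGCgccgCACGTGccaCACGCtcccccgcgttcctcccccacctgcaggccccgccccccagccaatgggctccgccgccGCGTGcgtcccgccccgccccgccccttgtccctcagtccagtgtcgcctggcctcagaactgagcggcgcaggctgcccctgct
Adm: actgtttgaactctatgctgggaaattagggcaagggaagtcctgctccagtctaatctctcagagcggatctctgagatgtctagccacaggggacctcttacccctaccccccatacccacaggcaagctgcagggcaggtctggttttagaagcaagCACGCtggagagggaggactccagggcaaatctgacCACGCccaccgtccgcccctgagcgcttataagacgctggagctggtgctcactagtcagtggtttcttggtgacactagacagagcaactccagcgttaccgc
Egln1: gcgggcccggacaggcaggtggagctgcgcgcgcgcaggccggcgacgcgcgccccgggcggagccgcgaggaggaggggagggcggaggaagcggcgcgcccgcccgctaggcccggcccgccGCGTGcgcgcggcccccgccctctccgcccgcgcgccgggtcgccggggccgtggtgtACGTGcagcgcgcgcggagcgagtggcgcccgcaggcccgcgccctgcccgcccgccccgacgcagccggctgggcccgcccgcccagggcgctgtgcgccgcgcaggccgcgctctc
Egln3: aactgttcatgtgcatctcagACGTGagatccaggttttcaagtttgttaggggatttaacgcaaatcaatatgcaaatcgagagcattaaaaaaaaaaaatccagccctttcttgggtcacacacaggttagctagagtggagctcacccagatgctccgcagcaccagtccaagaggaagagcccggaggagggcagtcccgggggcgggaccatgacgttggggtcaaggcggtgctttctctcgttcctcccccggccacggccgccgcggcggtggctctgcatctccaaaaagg
The cores are letters found in these windows and not measured binding sites, and enhancers outside the windows were not searched. Of the other windows, the first start of *Egln2* held the most, 6 matches at 5 sites, and *Hif1a* held 3 matches of ACGTG at 2 sites.

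**Figure D3:**
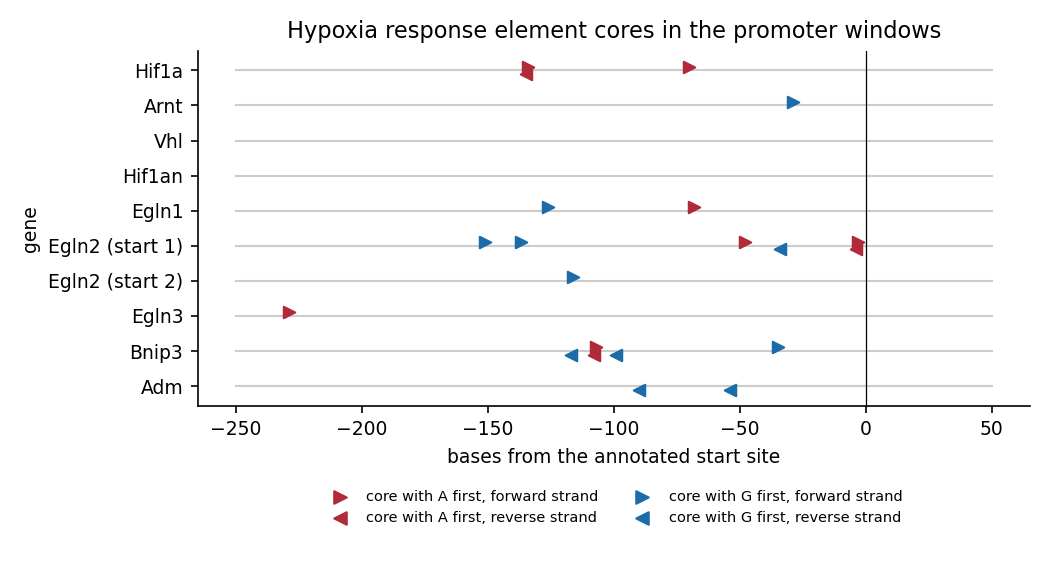
Position of each hypoxia response element core along the promoter windows of 9 members, in bases from the annotated start (vertical line), with red for ACGTG, blue for GCGTG and the arrow for the strand. *Bnip3* and the first start of *Egln2* hold the most cores, and *Vhl* and *Hif1an* none.

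*Bnip3* (chromosome 7, 138890836 to 138909519), a HIF1 target whose product sits in the outer mitochondrial membrane and recruits autophagosomes, had 39.0 and 35.0 CPM, averaging 37.0 ± 2.85 CPM (SD, n = 2). Its paralog *Bnip3l*, also called Nix, had 28.7 and 34.0 CPM. Per kilobase of exon *Bnip3* exceeded *Bnip3l* 2.32-fold and 1.75-fold, a log2 ratio of 1.01 ± 0.28 (SD, n = 2), larger than the spread. The mean was 0.24 on the log2 scale without division by length, since the exons of *Bnip3* cover 2265 bases and those of *Bnip3l* 3859. The 13 genes listed as BNIP3 partners and mitophagy genes were all measured above 1 CPM and summed to 1121 and 1234 CPM. The autophagy adaptor gene *Sqstm1* was the highest at 379 and 426 CPM, followed by *Gabarap*, a gene of the autophagosome coat, at 261 and 303 CPM.

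*Adm* was the member that differed most between the libraries. *Adm* (chromosome 7, 110627661 to 110629820), which encodes the vasodilator peptide adrenomedullin, had 40.5 CPM (95% interval 38.6 to 42.4) in replicate 1, against 6.86 CPM (6.09 to 7.69) in replicate 2. Replicate 1 was 5.90 times higher, with a 95% exact counting interval from 5.21 to 6.71, so the gap was larger than counting error. With 1 library on each side no spread of either level is available, and the mean of 23.7 had an SD of 23.8 CPM (n = 2). *Bnip3*, the other target, differed by a factor of 1.12 between the same libraries.

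The receptor genes of the adrenomedullin system also differed between the libraries, in different directions, while the genes for the related peptide and its processing enzyme differed less. *Calcrl*, which encodes the receptor itself, was at 0 in the values of replicate 1 and at 6.07 CPM in replicate 2. That is 87.6-fold above the level of 3 reads in replicate 1, which is not a lower bound. The upper 95% limit in replicate 1 was 0.0853 CPM. The RAMP proteins pair with this receptor and set its preference among peptides. *Ramp2* had 2.34 and 0.283 CPM, *Ramp1* 0.601 and 5.29 CPM, and *Ramp3* 0.0462 and 0.522 CPM. No library thus had *Calcrl* and *Ramp2*, the classical adrenomedullin receptor, both above 1 CPM. *Ackr3*, a scavenger receptor that also takes up adrenomedullin, was present in both at 10.3 and 19.6 CPM. The related peptide gene *Adm2* had 39.1 and 37.9 CPM, and *Pam*, the gene of the enzyme that amidates these peptides, had 210 and 166 CPM.

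Between the libraries, which are replicates of 1 condition, the log2 ratio of replicate 2 to replicate 1 was computed with a pseudocount of 0.1 CPM for all 12631 genes whose mean was 1 CPM or more. On that scale the change of low genes is understated. The median over these genes was 0.30 (SD 0.83 across genes), so values are given relative to that median, called the median gene. Of the 10 members, 9 reached 1 CPM by mean and *Egln3* did not. Relative to the median gene, 8 of the 9 were lower in replicate 2, with a median log2 ratio of -0.46, against 50% of all genes. In the deposited CPM only 6 of the 9 were lower, against 25.7% of all genes, as *Egln1* and *Egln2* were then higher in replicate 2. *Adm* and *Epas1* differed by more than 2-fold relative to the median gene, with log2 ratios of -2.85 and -1.12, against 13.5% of all genes. Scaling by a trimmed mean of the ratios gave the same 2 members, against 13.4% of all genes, and in the deposited CPM *Adm* alone did, against 15.1%. A count of 2 of 9 or 1 of 9 is close to these backgrounds and says nothing particular about the members. The other members lay between -0.75 for *Vhl* and 0.07 for *Hif1an*, with *Hif1a* at -0.50 and *Arnt* at -0.39. *Egln1* and *Egln2*, at -0.11 and -0.12, were only slightly lower.

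The lists around the members are read against the 13.5% of all genes past 2-fold in either direction, 7.43% higher and 6.06% lower in replicate 2. The lists were chosen with earlier results of these data known, so their shares are descriptions and not tests. All 3 HIF hydroxylase genes, all 5 VHL ligase genes, all 5 other oxygen-dependent enzyme genes and all 13 genes of BNIP3 partners and mitophagy that reached 1 CPM were within 2-fold, with median log2 ratios of -0.11, 0.01, -0.19 and -0.14. The hydroxylase genes that missed the filter, *Egln3* and *P4htm*, had log2 ratios of -1.26 and -1.37 relative to the median gene. That of *Egln3* rests on about 12 and 4 reads. Of the 4 HIF subunit genes, 1 was more than 2-fold higher in replicate 2 (*Arnt2*) and 1 lower (*Epas1*), and of the 7 coactivators and regulators 1 was higher (*Cited2*). The adrenomedullin list had 2 of 7 genes higher (*Calcrl* and *Ramp1*) and 2 lower (*Adm* and *Ramp2*). Of these, *Calcrl*, *Ramp1* and *Ramp2* were each under 1 CPM in the library where they were low. They passed the filter only through the other library, so their being past 2-fold follows in part from the filter.

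**Figure D4:**
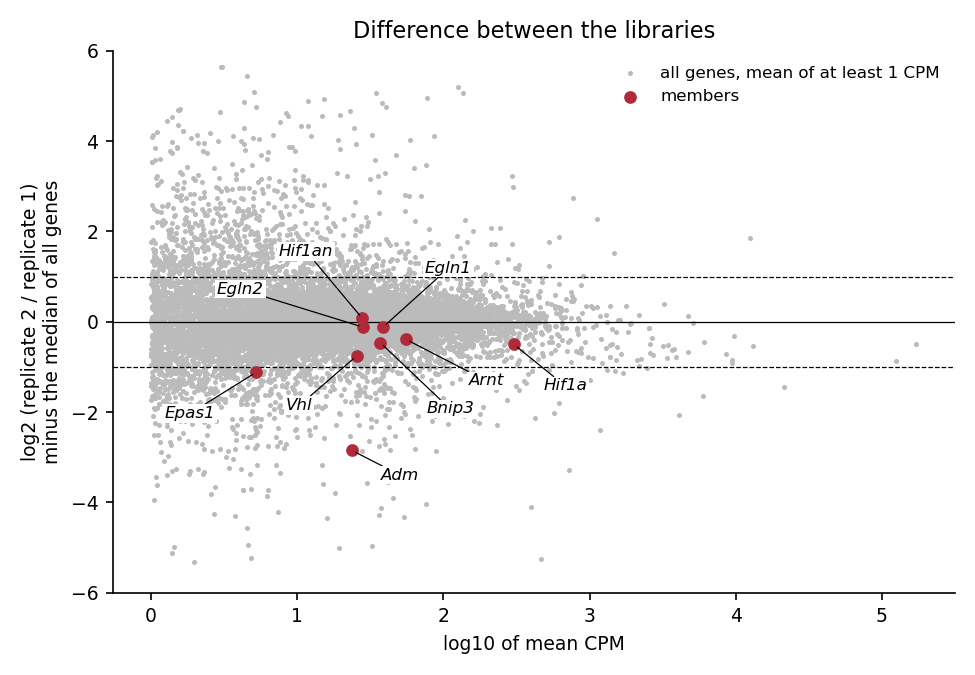
Log2 ratio of replicate 2 to replicate 1 minus the median of all genes, against log10 of the mean CPM, for the 12631 genes reaching 1 CPM by mean (grey, 4 lie beyond the axis) and 9 members (red), with dashed lines at 2-fold. *Adm* lies at -2.85 and *Epas1* at -1.12, and the other 7 members lie within 2-fold.

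A list of 23 HIF targets outside glycolysis included *Bnip3* and *Adm*, and 21 of its genes reached 1 CPM by mean. Of these, 18 were within 2-fold, where 13.5% of all genes were not, and 19 were below the median gene, against 50% of all genes, with a median log2 ratio of -0.32. Past 2-fold, 3 were lower in replicate 2, against 6.06% of all genes. Beside *Adm*, the lower ones were *Angptl4*, which encodes a lipoprotein lipase inhibitor and had 16.4 and 3.39 CPM, and *Stc2*, which encodes the secreted glycoprotein stanniocalcin 2 and had 200 and 107 CPM. A gene below the median gene need not be lower in the deposited CPM, where the median log2 ratio of all genes was 0.30. In the deposited CPM the 23 genes went in both directions, some lower and some higher in replicate 2. Their sum was 4795 and 5306 CPM, and their median level 28.7 and 30.4 CPM. The sum is weighted to the highest genes, and its rise was smaller than that of *Lox* alone. It therefore does not describe the list as a set. The highest levels of the list belonged to *Lox*, the gene of a collagen cross-linking enzyme, at 1839 and 2505 CPM, and to the collagen lysyl hydroxylase gene *Plod2* at 972 and 877 CPM. The 2 genes that did not reach 1 CPM were *Car9*, a carbonic anhydrase gene and common marker of hypoxia, with 0.0693 and 0.285 CPM, and *Ankrd37* with 0.578 and 0.759 CPM.

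Of the 18 glycolytic HIF targets, 17 reached 1 CPM by mean, 15 were within 2-fold and 14 were below the median gene, with a median log2 ratio of -0.22. A share of 2 in 17 past 2-fold is close to the 13.5% of all genes, and 50% of all genes were below the median gene. In the deposited CPM the 18 genes summed to 3981 and 4499 CPM, with a median level of 126 and 122 CPM. The genes past 2-fold were both for transport across the cell membrane and both lower in replicate 2. *Slc2a1*, which encodes the glucose transporter GLUT1, had 272 and 133 CPM, and *Slc16a3*, which encodes the lactate exporter MCT4, had 21.1 and 6.25 CPM. The listed gene that did not reach 1 CPM by mean, the transporter gene *Slc2a3*, went the other way, with 0.531 and 1.38 CPM. The enzyme genes of the list that reached 1 CPM were all within 2-fold, and the highest, *Pkm*, the pyruvate kinase gene, had 1183 and 1456 CPM, followed by the enolase gene *Eno1* at 561 and 731 CPM. Reads of several glycolytic genes can be shared with processed pseudogenes, so their levels are uncertain. Of the 6 chondrocyte markers, 5 were also below the median gene, with a median of -0.49, and the part of such a shift in the lists of targets was not tested.

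Among the genes known as HIF2 alpha targets in cartilage catabolism, those that reached 1 CPM by mean were higher in replicate 2, while *Epas1* was lower. Of 7 listed, only *Mmp3*, *Mmp13* and *Ptgs2* reached 1 CPM by mean, and all 3 were more than 2-fold higher in replicate 2, against 7.43% of all genes, with a median log2 ratio of 2.49 relative to the median gene. *Ptgs2*, the gene of cyclooxygenase 2, had 46.5 and 539 CPM. The collagenase gene *Mmp13* had 8.96 and 44.8 CPM, and the stromelysin gene *Mmp3* had 1.09 and 8.13 CPM. *Adamts4* and *Mmp9* did not exceed 0.522 CPM, and *Mmp12* and *Nos2* were listed at 0 in both libraries. *Epas1* was 1.78 times higher in replicate 1, with a 95% exact counting interval from 1.46 to 2.17. Its mRNA does not measure HIF activity, and a link between *Epas1* and these genes was not tested. The osteoblast and osteocyte markers differed in the same direction. Of the 4 that reached 1 CPM, 3 were more than 2-fold higher in replicate 2, against 7.43% of all genes. Among these, *Dmp1* and *Alpl* passed the filter only through replicate 2, so the count follows in part from the filter. The part of these markers in the result was not tested.

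**Figure D5:**
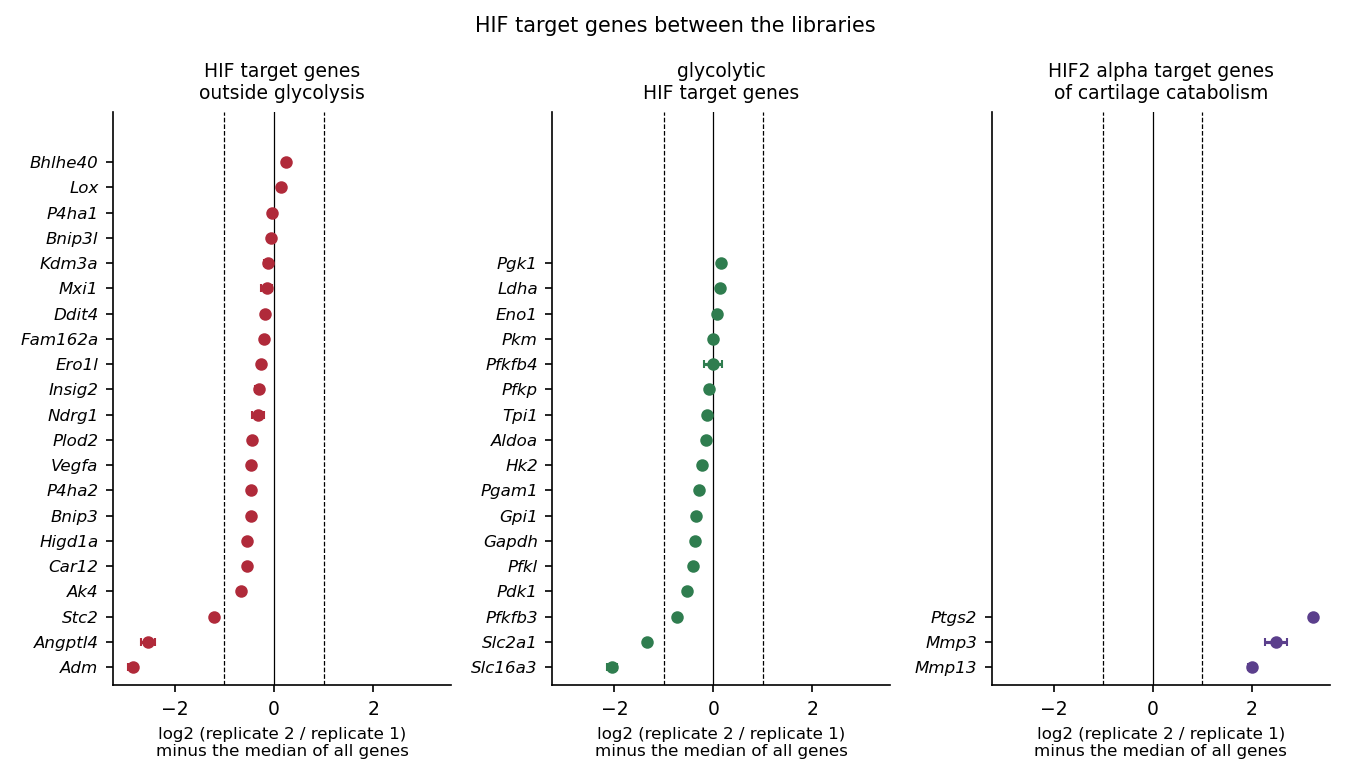
Log2 ratio of replicate 2 to replicate 1 minus the median of all genes for 3 lists of HIF target genes reaching 1 CPM by mean, with bars for 1 counting error and dashed lines at 2-fold. *Adm*, *Angptl4*, *Stc2*, *Slc16a3* and *Slc2a1* lie below -1, and *Ptgs2*, *Mmp3* and *Mmp13* above 1.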

How the data were processed

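RNA-sequencing of 2 libraries of 1 condition was analysed. Per the labels and the study's methods, the authors selected poly(A) RNA, made stranded single-end libraries, used STAR 2.7.3a for alignment to GRCm38 (GENCODE M25), assigned them to genes with Partek E/M in Partek Flow 10.0.21.0801 and deposited CPM values. Whether counting used strand is not given in the sources used here. An offset of 0.0001 was subtracted from every value. The value of 1 read was taken as the most common value above 0. Only 63.5% and 62.5% of values below 1 CPM were whole multiples of it (within 2% of a read), so no count model was fitted to test genes. The Poisson and exact counting intervals treat the values as reads all the same, and are therefore approximate.

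Means, SDs and log2 ratios were computed with Python 3.11.15, numpy 2.4.6, pandas 2.3.3 and scipy 1.17.1, and figures were drawn with matplotlib 3.10.9. Exonic lengths and positions come from GENCODE M21, which matched 97.2% of gene names. Both libraries belong to 1 condition, so groups were not tested. The members and the 17 gene lists were chosen with earlier results of these data known. An item of the list of HIF targets outside glycolysis is not reported here and was left out of its counts. Named genes are the members, and per list those with the highest levels or the largest ratio between the libraries. The adrenomedullin receptor genes, the coactivator genes, genes past 2-fold and genes under a threshold were also named after their values were seen. The code of the comparison between the libraries was run on simulated data that held counting error only. Changes of 4-fold put into 200 of 12631 genes were recovered in 100% of cases. The real libraries differed by more than counting error, so this checks the code and not the rate of false calls in these data. Alternatives covered scaling, length, pseudocount, filter and leaving out each library.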

Additional observations from a re-analysis of the deposited data

How the results depend on the processing

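For 18 results, 86 values were recomputed with 1 choice changed, of which 70 stayed within a tolerance, 15 moved past it and 1 reversed. The tolerance was the SD for levels and for ratios between genes. It was the median counting error for the median ratio and a set factor for the count. Values with 1 library left out of a mean of 2 stay within 1 SD by arithmetic and show no stability. Mean levels with the offset kept or scaled by the trimmed mean show none either. The offset is tiny, and that scaling moves the libraries in opposite directions. The log2 ratio of *Egln1* to *Egln2* reversed from 0.10 to -0.31 when the longest coding transcript set the length, and was 0.46 without division by length. Without division by length, the log2 ratio of *Hif1a* to *Arnt* was 2.45 and that of *Bnip3* to *Bnip3l* 0.24, and with the longest coding transcript that of *Hif1a* to *Arnt* was 2.32. These changes follow from the lengths themselves. The count of members past 2-fold between the libraries was 1 in the deposited CPM. It was 2 when a trimmed mean of the ratios set the scale (30% of ratios and 5% of levels trimmed on each side), and 2 with a total that omits the 10 highest genes. The levels of 9 of the 10 members then rose by more than their SD, which follows from the smaller total, for example to 502 CPM for *Hif1a*. The median log2 ratio of the members was -0.16 in the deposited CPM, -0.35 without the 10 highest genes, -0.44 with the trimmed mean and -0.46 relative to the median gene. The last is centred on all genes, so rescaling cannot move it, and it was -0.43 with a pseudocount of 1 CPM. No paired analysis was possible because there is 1 group. With 2 libraries, the SD of each value is itself imprecise, and *Egln3* is limited by depth.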
